A study of Mus musculus with 8 samples.

Results

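Cytochrome P450 enzymes are heme proteins that insert oxygen into drugs, fatty acids, sterols, steroids, vitamins A and D and other small molecules. The mouse genome encodes many of them in tandem clusters of near-copies, and the liver is the organ best known for them, where hepatocytes use them for bile acid synthesis and drug clearance. Most take their electrons from the reductase Por, the mitochondrial ones from ferredoxin, and nuclear receptors together with the aryl hydrocarbon receptor (AHR) set the levels of many members.

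The P450 genes were taken by symbol, as every gene of the probe-to-gene table written Cyp, a family number, a subfamily letter or letters and a member number. That pattern leaves out Cyp51. It matched 93 symbols, of which 90 had a probe set naming that gene and no other, among 22180 genes measured in this way. Cyp2c67, Cyp4a10 and Cyp4a32 had none and were not analysed here. Where a gene had several probe sets the one with the highest mean over all lines stood for it, which concerned 4 P450 genes.

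The values come from 8 clonal cell lines of C57BL/6 mice, each hybridised to 1 Affymetrix array. The tumours they were grown from arose from hepatocytes, per the series title, and were driven by c-Myc and NrasG12V on the pCaMIN vector in both types. The 4 lines of intrahepatic cholangiocarcinoma (ICC, a liver cancer with bile duct features) came from focal in vivo electroporation and are ICC9 and ICC10, labelled female, and ICC2.7 and ICC2.9, labelled male. The 4 lines of hepatocellular carcinoma (HCC, a liver cancer with hepatocyte features) came from hydrodynamic tail-vein injection and are HCC1 and HCC4, labelled male, and HCC2.1 and HCC2.4, labelled female. Tumour type and the way the vector was delivered therefore cannot be told apart. All lines were untreated and grown in DMEM with 10% FCS and 7.5% CO2. Each line is 1 clone. Which animal or tumour a line came from is not in the labels, so a p-value here sets a difference against the spread among the lines at hand, which may be technical. Values are given below in the order ICC9, ICC10, ICC2.7, ICC2.9 and then HCC1, HCC4, HCC2.1, HCC2.4.

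Values are log2 signals, and the median of all genes lay between 5.62 and 5.68 on the 8 arrays. A gene is called above the median gene level on an array when its value is over that array's median. Probe sets differ in affinity and signal over background was not assessed, so this is a description and gives no order of levels between genes. The 8 columns span only 7 independent directions, and the lost direction lies mostly on ICC9 and ICC10 (weights of 0.782 and -0.538, against at most 0.185 for any other line), so part of the spread between these lines is missing from the values. Of the hepatocyte markers 0 of 9 measured were above the median gene level on all 8 arrays (45.3% of all genes were), 3 on some and 6 on none. Albumin lay between 4.12 and 4.64, while Hnf4a and Apob were above the median gene level in HCC2.1 and HCC2.4. Of the bile duct markers 2 of 6 were above on all arrays, 1 on some and 3 on none. The 2 were Sox9 at 11.45 to 11.86 and Krt7 at 5.84 to 6.04. The blood and immune markers had 1 of 7 above on all arrays (Cd68), with the pan-leukocyte gene Ptprc at 3.40 to 3.99. The endothelial markers had 0 of 5 and the stellate cell and fibroblast markers 3 of 7. Fibrillar collagen gene Col3a1 was the only marker called between the types (log2 difference ICC minus HCC 1.67, limma adjusted p = 0.0252, with 0.261% of all genes called). Between female- and male-labelled lines 1 bile duct marker was called higher in the female lines. In the same comparison 2 stellate cell and fibroblast markers were called lower in the female lines (2.94% of all genes called).

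The stretch of 250 bases just before the transcription start is shown for 5 members, in RefSeq's GRCm38.p6 annotation, written on the gene's own strand from 5′ to 3′. Cyp1a1 and Cyp1b1 are shown because AHR is known to drive both and their values went apart in these lines. Cyp2c55 is shown for the smallest p between the tumour types, and Cyp2j6 and Cyp3a13 because they were the P450 genes called between female- and male-labelled lines. Capitals mark exact matches, on either strand, to 3 motifs that do not overlap here: GCGTG, the core of the AHR response element, AGGTCA, the core site of many nuclear receptors, and TATAAA, the TATA box.
Cyp1a1, chr9:57697363-57697612, plus strand: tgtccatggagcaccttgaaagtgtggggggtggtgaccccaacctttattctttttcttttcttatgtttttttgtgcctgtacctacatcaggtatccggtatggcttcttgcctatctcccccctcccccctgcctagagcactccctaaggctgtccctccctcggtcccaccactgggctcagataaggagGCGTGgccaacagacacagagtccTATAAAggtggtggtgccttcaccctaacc
Cyp1b1, chr17:79715062-79715311, minus strand: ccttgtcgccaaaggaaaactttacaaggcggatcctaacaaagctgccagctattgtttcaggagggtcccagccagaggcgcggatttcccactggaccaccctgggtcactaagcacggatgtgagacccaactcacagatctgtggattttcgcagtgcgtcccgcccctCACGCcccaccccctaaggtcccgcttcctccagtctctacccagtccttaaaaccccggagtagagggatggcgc
Cyp2c55, chr19:39006769-39007018, plus strand: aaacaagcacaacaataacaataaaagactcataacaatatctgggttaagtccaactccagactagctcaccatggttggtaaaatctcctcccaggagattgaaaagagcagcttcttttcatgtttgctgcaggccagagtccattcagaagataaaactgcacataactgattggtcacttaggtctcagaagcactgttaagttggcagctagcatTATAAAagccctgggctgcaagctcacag
Cyp2j6, chr4:96553652-96553901, minus strand: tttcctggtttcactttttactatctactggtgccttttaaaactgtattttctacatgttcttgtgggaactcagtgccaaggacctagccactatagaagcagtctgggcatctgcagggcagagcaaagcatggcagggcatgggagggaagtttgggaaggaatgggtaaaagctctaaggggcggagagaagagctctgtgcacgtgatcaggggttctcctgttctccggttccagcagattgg
Cyp3a13, chr5:137921620-137921869, minus strand: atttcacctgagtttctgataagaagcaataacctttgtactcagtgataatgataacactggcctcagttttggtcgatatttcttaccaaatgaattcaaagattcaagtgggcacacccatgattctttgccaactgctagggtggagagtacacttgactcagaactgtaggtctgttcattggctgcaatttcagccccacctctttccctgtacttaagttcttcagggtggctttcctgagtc
The Cyp1a1 stretch holds GCGTG starting at -54 and TATAAA starting at -30, counted from the start site. The Cyp1b1 stretch holds GCGTG on the opposite strand, printed as CACGC, at -76. The Cyp2c55 stretch holds TATAAA at -29, and those of Cyp2j6 and Cyp3a13 hold none of the 3 motifs. RefSeq's promoter table held 70 of the 90 P450 genes with 78 start sites. TATAAA was in 30.8% of these P450 windows, against 12.4% of all 32851 windows of that length. AGGTCA was in 23.1% against 14.0%, and GCGTG in 20.5% against 28.2%. A match is a run of letters and not a measured binding site.

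Most P450 genes lay at the low end of these arrays. Of the 90 genes, 73 (81.1%) were at or below the median gene level on all 8 arrays, against 45.2% of all genes. The genes that stayed above it in every line numbered 7 (7.78%, against 45.3% of all genes): Cyp20a1, Cyp4f13, Cyp39a1, Cyp4f17, Cyp2c55, Cyp1b1 and Cyp2u1. The remaining 10 (11.1%, against 9.51% of all genes) were above in some lines. A single line had between 10 P450 genes above the median (HCC4) and 14 (ICC2.7).

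**Figure D1:**
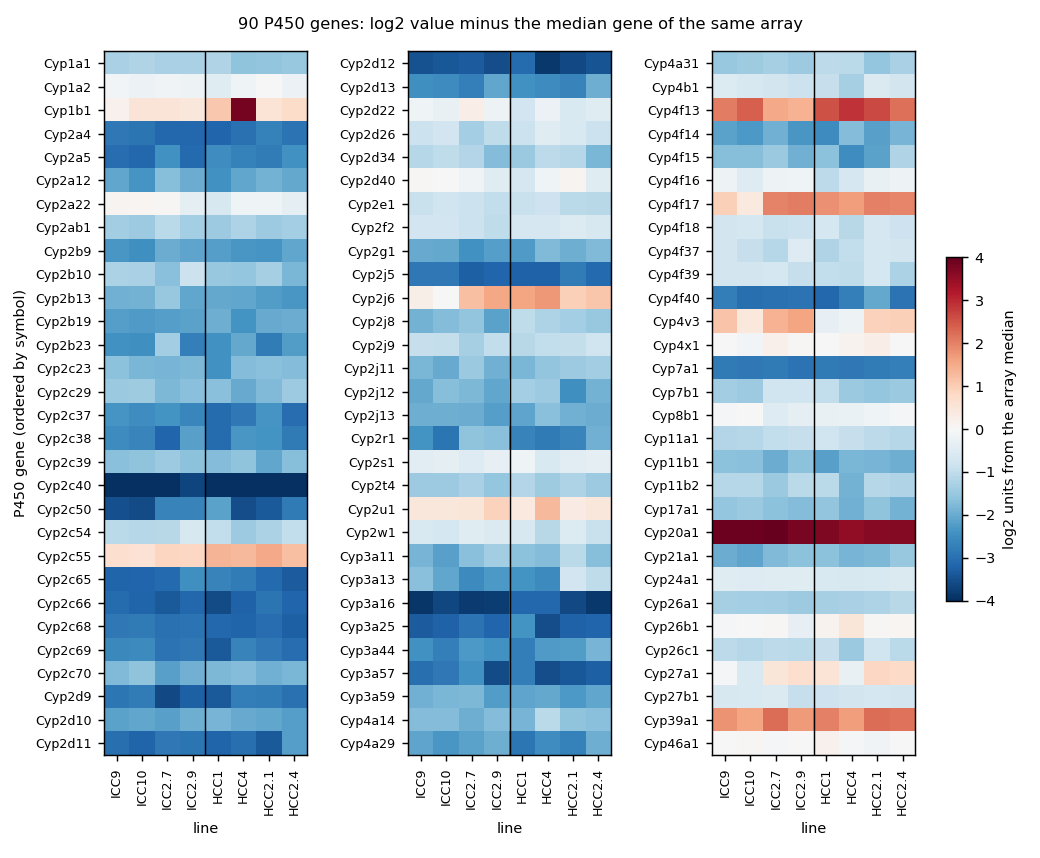
Log2 signal of the 90 P450 genes (rows) in the 8 lines (columns), as the difference from the median of all genes on the same array, with colours limited to 4 log2 units either way. Most rows are on the low side in every line, and 7 rows are on the high side in every line.

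None of the 6 P450 genes listed as classical hepatocyte enzymes stayed above the median gene level. Cyp7a1, the rate-limiting enzyme of bile acid synthesis, lay between 2.68 and 2.91 in all lines. Cyp3a11, a main drug-metabolising enzyme of mouse liver and a known target of the pregnane X receptor, lay between 3.52 and 4.53. Cyp2e1, which oxidises ethanol and paracetamol, lay between 4.51 and 4.89. These ranges do not separate the tumour types: the log2 difference between ICC and HCC lines was -0.06 for Cyp7a1, -0.21 for Cyp3a11 and 0.10 for Cyp2e1. Cyp1a2, known for caffeine metabolism, came closest from below, with values from 5.19 to 5.62 that never passed its array's median. Cyp8b1, which steers bile acid synthesis toward cholic acid, was above on 1 array (ICC10, 5.71) and otherwise between 5.13 and 5.58. Cyp27a1, the mitochondrial sterol hydroxylase of the alternative bile acid route, was above on 5.

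The 7 genes that stayed above the median gene level come from several families. Cyp20a1, an orphan P450 with no settled substrate, measured 9.57, 9.61, 9.68 and 9.44 in the ICC lines and 9.39, 9.23, 9.27 and 9.31 in the HCC lines. Cyp39a1, an oxysterol hydroxylase of bile acid synthesis, measured 7.44, 7.26, 7.90 and 7.34 in ICC lines and 7.68, 7.35, 7.86 and 7.80 in HCC lines. The ICC and HCC values of Cyp39a1 overlap, while those of Cyp20a1 do not. Cyp4f13 and Cyp4f17 belong to the Cyp4f enzymes, known for hydroxylating the far end of fatty acids and leukotrienes. Cyp2u1, a long-chain fatty acid hydroxylase, measured 6.11, 6.12, 6.15 and 6.56 in ICC lines and 6.04, 6.96, 5.94 and 6.09 in HCC lines, so that 1 line of each type stood above the others. Cyp2c55, a Cyp2c enzyme known to oxidise arachidonic acid, and Cyp1b1, which hydroxylates estradiol and polycyclic hydrocarbons, complete the 7.

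**Figure D2:**
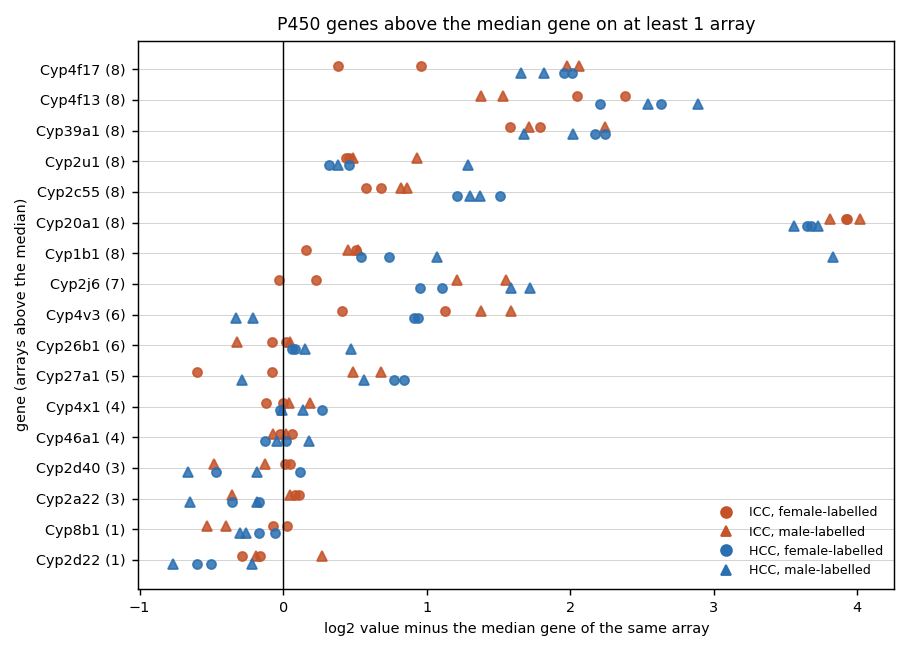
Log2 signal minus the array's median over all genes for the 17 P450 genes above that median on at least 1 of 8 arrays, 1 point per line, with tumour type by colour and the sex label by marker shape. The genes with all points to the right of 0 are the 7 named in the text, and the HCC4 point of Cyp1b1 lies 3.83 above its array's median.

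The genes above in some lines only were Cyp2j6 on 7 arrays, Cyp4v3 and Cyp26b1 on 6, Cyp27a1 on 5, Cyp4x1 and Cyp46a1 on 4, Cyp2a22 and Cyp2d40 on 3, and Cyp2d22 and Cyp8b1 on 1. Several of them sat close to the median. Cyp4x1 ranged from 5.56 to 5.89 and Cyp46a1, the cholesterol hydroxylase of neurons, from 5.49 to 5.84. Just outside lay Cyp1a2, at most level with its array's median to 2 decimals, and Cyp4f16, at least 0.16 below it in each line.

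By family, the 48 genes of CYP2, the largest group and home of many drug-metabolising enzymes, had 2 above on all arrays, 4 on some and 42 on none. The 15 CYP4 genes had 2, 2 and 11. The 7 CYP3 genes, which are all Cyp3a, had none above on any array. The 6 genes of bile acid and sterol metabolism had 1 above on all arrays (Cyp39a1), 3 on some (Cyp27a1, Cyp46a1, Cyp8b1) and 2 on none (Cyp7a1, Cyp7b1). The 5 measured genes of steroid hormone synthesis (Cyp11a1, Cyp11b1, Cyp11b2, Cyp17a1, Cyp21a1) and the 3 of vitamin D metabolism (Cyp2r1, Cyp24a1, Cyp27b1) were above on none. Of the 3 retinoic acid hydroxylases, which clear retinoic acid, Cyp26b1 was above on 6 arrays and Cyp26a1 and Cyp26c1 on none. Cyp19a1 was not analysed here.

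Many P450 genes lie in runs of neighbouring P450 genes, and the runs that hold Cyp2c55, Cyp2j6, Cyp4f17 and Cyp4f13 are described here. The pairs of Cyp1a and of Cyp11b genes, the Cyp3a run and the run from Cyp2s1 to Cyp2b9 held none above on any array. The run of 14 neighbouring Cyp2c genes on chromosome 19 had 13 measured members, and Cyp2c55, at one end of the run, was the one above the median gene level. The other 12 ranged from 1.24 (Cyp2c40) to 4.98 (Cyp2c54) over all lines. The run of 7 Cyp2j genes on chromosome 4 held Cyp2j6, above on 7 arrays, and 6 genes above on none. The run of 6 Cyp4f genes on chromosome 17 held Cyp4f17, and its 5 neighbours were above on none, with Cyp4f16 coming within 0.16 of its array's median. Cyp4f13 has Cyp4f14 beside it, at 3.13 to 3.95. Genes of one cluster have similar sequences, so a probe set of one may read another, and probe sets of different affinity give no order of levels within a run.

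Between ICC and HCC lines, 0 of the 90 P450 genes passed limma's moderated test at an adjusted p under 0.05 over all genes, where 58 of 22180 genes passed (0.261%). At an unadjusted p under 0.05 the same test picked 10 P450 genes (11.1%, against 14.1% of all genes), 6 higher in ICC and 4 higher in HCC lines. The lines of one type lay all above those of the other in 7 P450 genes (7.78%, against 8.63%). Of the 90 differences 45 were positive, 44 negative and 1 was 0, with a median of 0.00 log2 units (0.003 over all genes). Cyp1b1 was the only P450 gene with a difference of 1 log2 unit or more, against 1.63% of all genes. The shares for P450 genes are near or below those of all genes. The median range over the 8 lines was 0.74 log2 units for the P450 genes against 0.57 over all genes. Most P450 genes lay below the median gene level, and the comparison was not matched by level. Signal over background was not assessed, so how much of this range is noise of dim probe sets is not known.

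**Figure D3:**
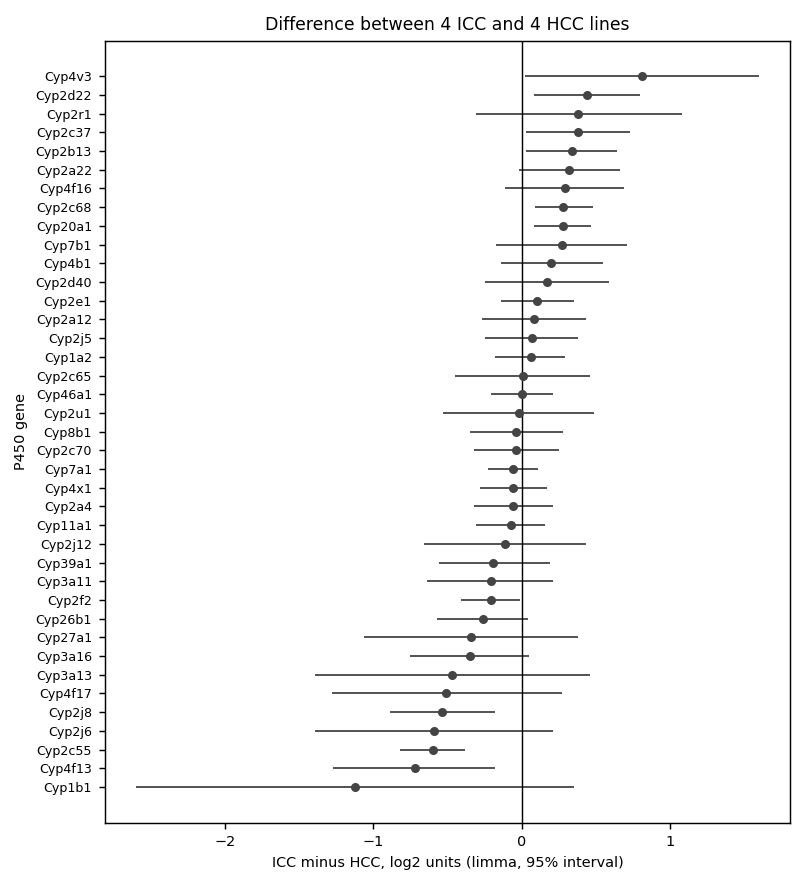
Log2 difference ICC minus HCC with its 95% confidence interval from limma for the 39 P450 genes named by rule, 4 lines per type. Cyp2c55 has the narrow interval from -0.82 to -0.38, Cyp1b1 the wide one from -2.60 to 0.35, and 0 genes pass the adjusted threshold.

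Cyp2c55 had the smallest p of the P450 genes in this comparison. Its values were 6.33, 6.26, 6.52 and 6.45 in ICC lines and 7.03, 6.97, 7.13 and 6.84 in HCC lines. All HCC lines were above all ICC lines. The means were 6.39 ± 0.12 and 6.99 ± 0.12 (SD, n = 4 each), a log2 difference of -0.60 (SE 0.10, 1.52-fold lower in ICC lines) with a limma adjusted p = 0.054. Over 20 other settings the adjusted p lay between 0.00252 and 0.246, and 4 of them called the gene: array weights (0.00252, with 10.3% of all genes called), the model with the sex label (0.0225, 1.93%), the genes above the median level only (0.0366, 0.929%) and quantile normalization (0.046, 0.361%). A second, dimmer probe set of Cyp2c55 gave a difference of -0.23, with values between 3.10 and 3.62 in which the types overlapped.

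Other P450 genes had unadjusted p under 0.05 without passing the adjusted threshold. Cyp20a1 had a difference of 0.28 (SE 0.08, 95% interval 0.08 to 0.47, limma adjusted p = 0.204), with every ICC line above every HCC line. Cyp4f13 measured 7.70, 8.06, 7.19 and 7.01 in ICC and 8.20, 8.56, 8.25 and 7.84 in HCC lines, a difference of -0.72 (SE 0.24, limma adjusted p = 0.237), and its ranges overlapped through ICC10 and HCC2.4. Cyp4v3, the mouse counterpart of a human fatty acid hydroxylase gene linked to a retinal dystrophy, had a difference of 0.81 (SE 0.35, 95% interval 0.02 to 1.60, limma adjusted p = 0.344). Cyp2j8 lay between 3.48 and 4.07 in ICC and between 4.11 and 4.63 in HCC lines, below the median gene level in both (difference -0.54, SE 0.16, limma adjusted p = 0.189). The other 5 were at or below the median gene level on at least 7 arrays. Cyp2d22 (0.44), Cyp2c37 (0.38), Cyp2b13 (0.34) and Cyp2c68 (0.28) had positive differences, and Cyp2f2, known from the club cells of the lung, a negative one (-0.21). The dimmer probe set of Cyp2f2 gave 0.29, the opposite sign.

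Cyp1b1 had the widest range of all P450 genes, 3.69 log2 units, and it came from a single line. Its values were 5.81, 6.19, 6.18 and 6.08 in ICC lines and 6.73, 9.50, 6.16 and 6.37 in HCC lines, with HCC4 at 9.50. The difference of -1.12 (SE 0.65, 95% interval -2.60 to 0.35, limma adjusted p = 0.475) became -0.35 without HCC4 (adjusted p = 0.365). Ahr itself, the receptor gene, measured 8.46, 9.06, 8.05 and 8.03 in ICC and 9.37, 10.34, 8.70 and 8.72 in HCC lines. HCC4 was highest in both genes. Ahr had a difference of -0.88 (SE 0.38, unadjusted p = 0.0459, limma adjusted p = 0.343), with overlap through ICC10. The values of other genes known to answer to AHR are given for HCC4 as well. Cyp1a1 measured 4.07 there, within its range of 4.05 to 4.47 over all lines. Cyp1a2 measured 5.49, Ahrr, the AHR repressor, 4.81, and Nqo1, a quinone reductase, 4.55. Aldh3a1, an aldehyde dehydrogenase, measured 4.75 in HCC4 and between 4.33 and 5.41 in all lines. Tiparp, a known AHR target that limits the receptor, measured 8.37 in HCC4 and between 7.93 and 9.18 in all lines. Arnt, the partner of AHR, lay between 9.45 and 9.84.

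**Figure D4:**
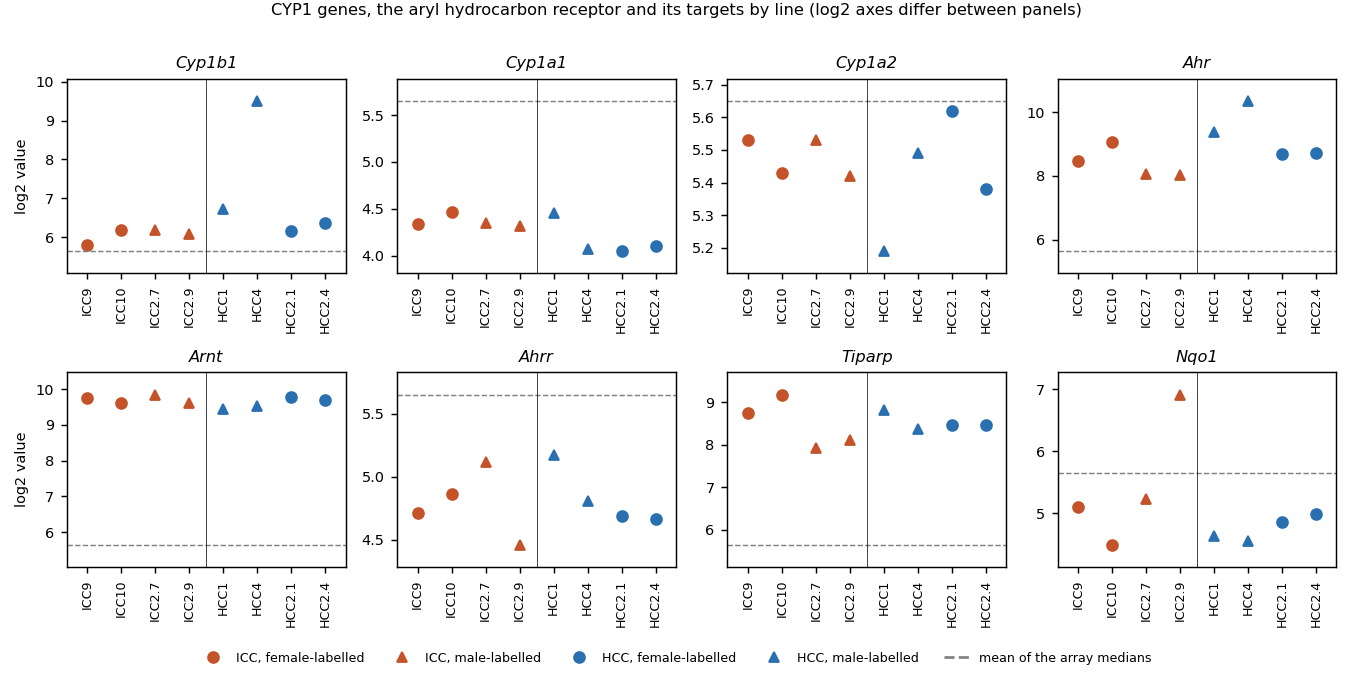
Log2 signal by line of Cyp1b1, Cyp1a1, Cyp1a2, the receptor genes Ahr and Arnt, and the AHR targets Ahrr, Tiparp and Nqo1, 1 point per line with lines grouped by tumour type. HCC4 is highest in Cyp1b1 (9.50) and in Ahr (10.34) and lies within the range of the other lines in Cyp1a1 (4.07).

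Between female- and male-labelled lines, with tumour type in the model, 2 of 90 P450 genes passed limma's adjusted threshold (2.22%, against 2.94% of all genes), and 9 had an unadjusted p under 0.05 (10.0%, against 17.5%). The groups did not overlap in 7 P450 genes (7.78%, against 8.76%). Cyp2j6, of the arachidonic acid oxidising Cyp2j enzymes, measured 5.88 and 5.65 in female and 6.87 and 7.18 in male ICC lines. In HCC lines Cyp2j6 measured 6.57 and 6.74 in the female and 7.25 and 7.39 in the male lines. All 4 male lines lay above all 4 female lines. Cyp2j6 was 1.95-fold lower in the female lines (log2 difference -0.96, SE 0.15, limma adjusted p = 0.0151), and the call held in 13 of 16 other settings, being lost without ICC9 (0.0738), ICC2.7 (0.0554) or HCC2.1 (0.0525). Within the female lines alone ICC was below HCC for Cyp2j6 (log2 difference -0.89, limma adjusted p = 0.0373), and within the male lines the difference was -0.29 (adjusted p = 0.434), fits of 2 lines against 2. In each fit type cannot be told apart from the names of the lines. The lines named 2.x are the HCC lines in the female fit and the ICC lines in the male fit.

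Cyp3a13, a Cyp3a enzyme of liver and intestine, went the other way. It measured 3.97 and 3.61 in female and 3.10 and 3.32 in male ICC lines, and 4.86 and 4.62 in female and 3.28 and 3.11 in male HCC lines. Every value is below the median gene level of its array, and HCC2.1 and HCC2.4 were the highest. Cyp3a13 was 2.09-fold higher in female lines (log2 difference 1.06, SE 0.20, limma adjusted p = 0.0362), and 7 of 15 other settings called it, with adjusted p between 0.0111 and 0.122. The call was lost without ICC9 (0.122), ICC2.7 (0.0876), HCC1 (0.0781), HCC4 (0.0616), HCC2.1 (0.0964) or HCC2.4 (0.114), with the lost direction in the model (0.0789) and with a random block for the 4 type and sex groups (0.0592). Hnf4a, a regulator of hepatocyte genes, measured 7.26 and 7.06 in HCC2.1 and HCC2.4 and between 5.32 and 5.92 in the other lines. Apob, a hepatocyte secretory gene, measured 8.80 and 8.79 in HCC2.1 and HCC2.4 and between 3.69 and 5.34 elsewhere. Both genes belong to the 9 measured hepatocyte markers, and whether the rest of that list was also highest in HCC2.1 and HCC2.4 was not assessed. At an unadjusted p under 0.05 in limma's test between the sexes, 3 of the 9 were higher and 1 lower in female lines (17.5% of all genes had such a p). Of the 9, 0 were above the median gene level on all arrays, 3 on some and 6 on none, HCC2.1 and HCC2.4 included. The part of Hnf4a and Apob in the Cyp3a13 result was not tested.

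Of the 11 P450 genes of the symbol pattern listed as sex-biased in mouse liver 0 were called by the same test (2.94% of all genes). At an unadjusted p under 0.05 there were 2 (17.5% of all genes), and both counts are close to the shares of all genes. Genes outside the pattern, such as Cyp4a12a and Cyp4a12b, were not on this list. Of the 9 listed as female-biased (Cyp2a4, Cyp2b9, Cyp2b10, Cyp2b13, Cyp2c40, Cyp2c69, Cyp3a16, Cyp3a44, Cyp17a1), Cyp2a4 alone had an unadjusted p under 0.05, with a female minus male difference of 0.24 (limma adjusted p = 0.197). Of the 2 listed as male-biased, Cyp7b1, an oxysterol hydroxylase, had a difference of -0.47 (limma adjusted p = 0.0848) and Cyp2d9 one of 0.38 (adjusted p = 0.29). All 11 were below the median gene level on every array. Cyp8b1 (0.29), Cyp4b1 (0.33), Cyp2j5 (0.32), Cyp11a1 (-0.22) and Cyp2c65 (-0.45) made up the rest of the 9 at an unadjusted p under 0.05.

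The interaction of tumour type and sex label called 0 of 90 P450 genes and 0.0% of all genes, and 14 P450 genes had an unadjusted p under 0.05 (15.6%, against 20.1% of all genes). In these lines the interaction also separates the lines named 2.x (ICC2.7, ICC2.9, HCC2.1, HCC2.4) from the rest, and the sex label and that name series cannot be told apart in it. The smallest adjusted p of the P450 genes was 0.113, for Cyp4v3 and Cyp4f17. Cyp4v3 measured 6.78, 6.09, 7.04 and 7.22 in ICC and 5.33, 5.46, 6.53 and 6.57 in HCC lines, so that HCC1 and HCC4 were lowest. Its interaction term was -1.85 (SE 0.30), and it was called with the lost direction in the model (-2.10, adjusted p = 0.0126) and without ICC9 (-2.19, adjusted p = 0.0119). Cyp4f17 measured 6.61, 6.06, 7.64 and 7.69 in ICC and 7.48, 7.33, 7.63 and 7.59 in HCC lines. ICC9 and ICC10 were the low lines, the term was -1.53 (SE 0.25), and the same changes gave adjusted p of 0.0143 and 0.0156. With the lost direction in the model these 2 were the P450 genes called, and 1.15% of all genes were.

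The rest of the 14 P450 genes with an unadjusted p under 0.05 for the interaction follow, none of them called by that term. Cyp27a1 measured 5.57, 5.08, 6.15 and 6.31 in ICC and 6.22, 5.38, 6.46 and 6.40 in HCC lines, with an interaction term of -1.53 (SE 0.39, limma adjusted p = 0.121). ICC10 and HCC4 held its lowest values. Cyp2r1, the first hydroxylase of vitamin D activation, measured 3.25, 2.77, 4.04 and 3.96 in ICC and 2.98, 2.83, 2.97 and 3.71 in HCC lines, with a term of -1.43 (SE 0.36, limma adjusted p = 0.121). Its 3 highest values, ICC2.7, ICC2.9 and HCC2.4, are all lines of the 2.x names. Cyp4f13 had a term of 1.11 (SE 0.28, limma adjusted p = 0.122), the opposite sign to Cyp4f17. The other 9 of the 14 had limma adjusted p between 0.119 (Cyp3a13) and 0.246 (Cyp3a11). Their terms were positive in Cyp2j12 (0.89), Cyp3a16 (0.71), Cyp2c70 (0.52) and Cyp2e1 (0.39). They were negative in Cyp3a13 (-0.96), Cyp4f16 (-0.73), Cyp3a11 (-0.70), Cyp2a12 (-0.60) and Cyp2j6 (-0.59). With 2 lines per type in one sex, limma called Cyp27a1 (-1.10, adjusted p = 0.0481) and Cyp4f17 (-1.27, adjusted p = 0.0445) beside Cyp2j6 in the female lines (3.14% of all genes called). In the male lines it called Cyp4v3 (1.74, adjusted p = 0.0209) and Cyp2r1 (1.09, adjusted p = 0.0463), with 0.902% of all genes called. Within one sex all lines of one type have 2.x names and none of the other, so type and name series cannot be told apart in these calls.

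**Figure D5:**
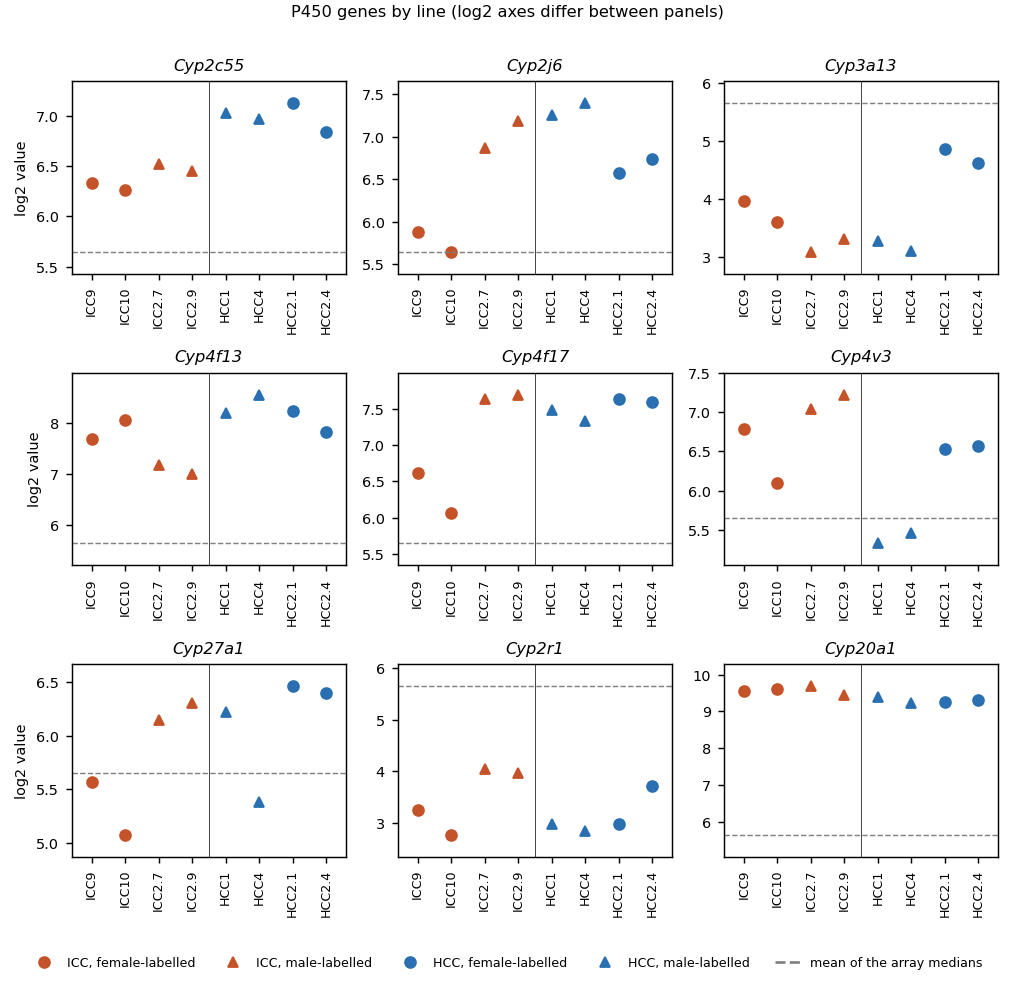
Log2 signal by line of 9 P450 genes, 1 point per line, with tumour type by colour and the sex label by marker shape; the dashed line is the mean of the array medians and the log2 axes differ between panels. Cyp2c55 separates the types, Cyp2j6 and Cyp3a13 separate the sex labels, Cyp4v3 is low in HCC1 and HCC4, and Cyp4f17 is low in ICC9 and ICC10.

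The measured redox partners and genes of heme synthesis and breakdown were above the median gene level on all arrays, against 45.3% of all genes. Of the redox partners 6 of 9 were measured, and all 6 (Cyb5a, Cyb5b, Cyb5r3, Fdx1, Pgrmc1, Pgrmc2) were above on all 8 arrays. Por was not analysed here. Between the types 0 of the 6 were called (0.261% of all genes), and Cyb5a, the cytochrome that passes electrons to some P450 enzymes, had the smallest p (7.31 ± 0.19 in ICC and 6.83 ± 0.19 in HCC lines, SD, n = 4 each, log2 difference 0.48, limma adjusted p = 0.162). All 11 measured genes of heme synthesis and breakdown were above on all arrays, with 0 called between the types, 3 at an unadjusted p under 0.05 (14.1% of all genes) and a median difference of 0.19 (0.003 over all genes). Alas1, the rate-limiting enzyme of heme synthesis, had a difference of -0.26 (limma adjusted p = 0.244), while Fech, which inserts the iron, had one of 0.28 (adjusted p = 0.235) and the heme oxygenase Hmox2 one of 0.26 (adjusted p = 0.201). Between the sexes 1 of these 11 was called (2.94% of all genes). This was Cpox, another heme synthesis gene, lower in the female lines (-0.49, limma adjusted p = 0.0178), a call kept in 10 of 16 other settings.

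Of 24 measured regulators of P450 genes 12 were above the median gene level on all arrays, 2 on some and 10 on none. The xenobiotic receptors were among the last, with Nr1i2 (the pregnane X receptor) at 3.92 to 4.69 and Nr1i3 (the constitutive androstane receptor) at 4.47 to 4.91. The bile acid receptor Nr1h4 lay between 4.17 and 4.79 and Ppara, a fatty acid sensor, between 4.77 and 5.05. Between the types 0 of 24 were called (0.261% of all genes) and 4 had an unadjusted p under 0.05 (14.1% of all genes), shares near those of all genes: Ahr, Nr1i2 (-0.33, limma adjusted p = 0.29), Stat5b, which carries the growth hormone signal (-0.53, adjusted p = 0.267), and Nr1h4 (0.35, adjusted p = 0.168). The 4 AHR targets outside the P450 family (Tiparp, Nqo1, Aldh3a1, Ahrr) had 0 called and 0 at an unadjusted p under 0.05.

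Retinoid handling genes, upstream of the Cyp26 enzymes, had 3 of 9 above on all arrays (45.3% of all genes). Between the types 0 were called (0.261% of all genes) and 2 had an unadjusted p under 0.05 (14.1% of all genes). Between the sexes 0 were called (2.94% of all genes) and 5 had an unadjusted p under 0.05 (17.5% of all genes). Of these 5, 4 were higher and 1 lower in the female lines. Rdh10, which makes retinal, measured 7.79, 8.24, 6.90 and 6.87 in ICC and 8.83, 8.32, 8.57 and 8.72 in HCC lines, a difference of -1.16 (SE 0.30, limma adjusted p = 0.152) without overlap. Aldh1a3, which makes retinoic acid, had a difference of -1.70 (SE 0.80, limma adjusted p = 0.382) and Aldh1a2 one of 0.49 (adjusted p = 0.348). Cyp26b1, which removes retinoic acid, measured 5.57, 5.70, 5.71 and 5.31 in ICC and 5.81, 6.14, 5.68 and 5.71 in HCC lines, a difference of -0.26 (limma adjusted p = 0.419). Its values cross the median gene level, with ICC9 and ICC2.9 below it.

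Of 29 genes of conjugation and other drug metabolism 8 were above on all arrays, 1 on some and 20 on none. Those above were Gsta4, Gstm1, Gstp1, Mgst1, Nat2, Ephx1, Ephx2 and Aox1, which are glutathione transferases, an acetyltransferase, epoxide hydrolases and an aldehyde oxidase, while the 5 Ugt2b, 4 Sult1 and 3 carboxylesterase genes listed were below on all arrays. Between the types 0 of 29 were called (0.261% of all genes), and 1, Aox1, had an unadjusted p under 0.05 (14.1% of all genes). Aox1 measured 7.94 ± 0.52 in ICC and 7.29 ± 0.35 in HCC lines (SD, n = 4 each, difference 0.66, limma adjusted p = 0.317). Ugt3a2 (0.27, adjusted p = 0.464) and the carboxylesterase gene Ces1d (-0.34, adjusted p = 0.485) had the next smallest p. Between the sexes 1 of the 29 was called (2.94% of all genes). This was Ugt2b36, far below the median at 1.36 to 2.48 (0.65, limma adjusted p = 0.0352), called in 7 of 15 other settings as well.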

How the data were processed

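Expression was measured in 8 mouse lines, 4 ICC and 4 HCC, on 1 Affymetrix array each. The deposited table holds log2 values which, per the submitters' processing notes, came from RMA in oligo, with versions and annotation release not given in the sources used here. It has 39993 probe sets, of which 23521 name 1 gene, 1814 several and 14658 none here, with 0 missing values and 0 columns outside the 8 samples. Dim probe sets were kept, and precision is limited by the number of arrays.

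Tests ran over all 22180 genes with limma 3.58.1 (R 4.3.3; two-sided moderated tests from lmFit and eBayes, adjusted by Benjamini-Hochberg, threshold 0.05). Type had no covariate, since sex is balanced; sex had type in the model. An SE is limma's moderated one and intervals are at 95%. The fit was tested on simulated data with noise drawn independently for each line. The deposited values lack a direction, and lines of one type and sex are correlated in them (consensus correlation 0.398). The simulation had neither feature, so it does not check the p-values for them. Python 3.11.15 made tables and figures.

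The P450 genes and all lists were chosen with earlier results of these data known. Named are P450 genes above the median on at least 1 array, with unadjusted p under 0.05 in a test, or among the 6 with the widest range; the 3 smallest p of each partner list; and 6 classical hepatocyte P450 genes with Ahr, Nr1i2, Nr1i3, Hnf4a and Por. Other names were chosen after their values were seen. Alternatives were the variance model, a filter on dim genes, normalization, centring, array weights, the mean of probe sets, the lost direction, a random block, the sex label, one sex only and each line left out. Added after seeing the data was the sex label together with the lost direction.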

Additional observations from a re-analysis of the deposited data

Results flagged for a closer look

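In 8 of 78 groups of 4 lines (39 named P450 genes in 2 types) the highest or lowest line stood apart from the other 3 by more than Dixon's limit. Chance gives about 1 in 20 for groups not chosen by their spread, and since some of these genes were named for a wide range or a small p, the count of 8 is not set against it. Cyp1b1 measured 9.50 in HCC4 and between 6.16 and 6.73 in the other HCC lines. Cyp2u1 measured 6.96 in HCC4, against 5.94 to 6.09, and 6.56 in ICC2.9, against 6.11 to 6.15. ICC2.9 also stood apart in Cyp2a22 (5.27, against 5.71 to 5.76), in Cyp2c65 (3.18, against 2.46 to 2.54) and in Cyp7a1 (2.68, against 2.81 to 2.82). Cyp2r1 measured 3.71 in HCC2.4, against 2.83 to 2.98 in the other HCC lines. Cyp4f16 measured 5.15 in ICC10, against 5.45 to 5.47 in the other ICC lines.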

How the results depend on the processing

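Between ICC and HCC lines the count of 0 called P450 genes became 1 (Cyp2c55) in 3 settings. These were genes above the median level only (0.929% of those genes called), quantile normalization (0.361% of all genes) and the sex label in the model (1.93%). The count became 3 in female lines only (3.14% of all genes) and 2 in male lines only (0.902%). It became 11 with array weights (10.3% of all genes), whose estimation did not converge. It ranged from 0 to 0 when each line was left out. The partner and regulator lists, with 0 called members among 82, had 9 with array weights (10.3% of all genes) and 0 to 0 without single lines. They had 7 in female lines only (3.14% of all genes) and 1 in male lines only (0.902%). In the fits of one sex, type cannot be told apart from the 2.x names. Of the 2 P450 genes called between the sexes 1 was left with the lost direction (1.26% of all genes) and with the random block (1.51%). Genes above the median level only left 1 (7.74% of those genes), and Cyp3a13 was not among the genes tested there. With array weights 5 were called (9.18% of all genes), and without single lines 0 to 4 (0.658% to 4.13%). The interaction had 2 called P450 genes with the lost direction in the model (1.15% of all genes), and 0 to 2 without single lines (0.0% to 1.07%). The 7 genes above the median gene level became 3 at 1 log2 unit above it, 13 by the mean over lines, and 7 to 8 without single lines. Differences without a call that changed sign were Cyp2f2 (0.04 with the mean of probe sets), Cyp2u1 (0.10 in female lines only and -0.13 to 0.21 without single lines), Cyp39a1 (0.10) and Cyp4f17 (0.26) in male lines only, and Cyp4v3 (-0.12) in female lines only. Of the other values of single genes 589 kept direction and side of the threshold, 22 passed it newly and 11 lost it. The cause was not tested. No paired analysis was possible because the labels give the lines no shared replicate numbers. Signal over background was not assessed, which limits what can be said of the genes below the median level.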

Other observations

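Some P450 genes lie outside the symbol pattern. Of 7 such genes 5 were measured, and 0 were called between the types by limma (0.261% of all genes). At an unadjusted p under 0.05 there was 1 (14.1% of all genes). Cyp51, the lanosterol demethylase of cholesterol synthesis, was above the median gene level on all 8 arrays and measured 8.70 ± 0.16 in ICC and 9.26 ± 0.23 in HCC lines (SD, n = 4 each, log2 difference -0.56, limma adjusted p = 0.125). Cyp4a12b was above on all 8 arrays, at 6.03 ± 0.14 and 6.00 ± 0.20, while its near-copy Cyp4a12a was above on 0 of them, at 3.75 ± 0.27 and 3.51 ± 0.25 (SD, n = 4 each).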
